A study of Mus musculus with 11 samples.

Results

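The cytosolic ribosomal proteins are the protein building blocks of the ribosome that translates nuclear-encoded messenger RNA. Members were all protein-coding mouse genes whose symbol is Rpl or Rps followed by a digit, with Rplp0, Rplp1, Rplp2 and Rpsa, and without the Rps6k kinases, Rps27a and pseudogenes. The annotation holds 85 such genes, and 53 of them had a row in the footprint table, against 4338 genes in all. Of the 53, 34 belong to the large subunit, counting the 3 stalk proteins, and 19 to the small subunit. The other 32, among them Rpsa, Rpl10, Rpl12, Rpl21, Rpl9 and Rps27, have no row, so their own footprint levels were not analysed here. The rule goes by symbol alone, so these 32 include Rps19bp1, whose symbol marks a binding protein of Rps19. A filter on low counts kept 48 of the 53 for testing, 27 of the large subunit body, 18 of the small subunit and the 3 stalk proteins.

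The data were ribosome-protected fragments, pieces of messenger RNA covered by a ribosome, from the cortex of wild-type C57BL6 mice 7 to 8 weeks old. All animals were anesthetized. In the stroke model a filament closed the right middle cerebral artery for 35 min, and tissue was taken after 3 h of reperfusion, from the occluded side (ipsilateral, replicates 2, 4, 5 and 6) and from the opposite side (contralateral, replicates 1, 4, 5 and 6). Sham animals (replicates 1, 2 and 5) had their arteries exposed with no filament, and the hemisphere taken from them is not stated. The ipsilateral samples carry a tissue entry that names the contralateral hemisphere, while their titles and descriptions say ipsilateral, and the titles were followed. A replicate number stands for a day of surgery. The labels do not say how many animals went into a library, or whether both hemispheres of a given stroke mouse were sequenced.

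After micrococcal nuclease digestion, ribosomes were captured with an antibody against P0, the product of Rplp0, which is itself a member here. The fragments were selected on a gel at 30 to 50 nt, and library inserts were given as 15 to 35 bp, read as single ends of 69 bp. No total RNA was analysed here, so the amount of a transcript and its translation cannot be told apart. In bulk tissue, fewer cells of a type and less RNA per cell cannot be told apart either.

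Ribosomal protein genes are expressed in every cell that makes protein, and their products are needed in equal numbers, apart from the stalk proteins P1 and P2, which are present in more copies. Many of their messenger RNAs begin with a C followed by an unbroken run of C and T, the terminal oligopyrimidine tract. Through this tract the LARP1 and mTOR pathway holds them back from translation when growth signals or energy fail, so this family is a classic readout of translational control. They are also among the genes with the most processed pseudogenes, and short reads from several of them fit more than a single place in the genome.

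Stretches of 30 bases around the RefSeq start of 8 members were read for the tract that this family is known for. They are on the gene's own strand and in build GRCm38.p6. Each line has 10 bases before the start, the start itself and 19 bases after it. Capitals mark the longest run of C and T that overlaps the window from 5 bases before to 5 bases after the start, and the genes are among those whose values are given further on. The first 4 have a run of at least 8 and the last 4 do not.
Rps6 (chr4:86857348-86857377, minus strand): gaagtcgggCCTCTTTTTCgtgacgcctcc
Rplp2 (chr7:141447641-141447670, plus strand): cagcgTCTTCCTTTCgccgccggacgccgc
Rpl38 (chr11:114668570-114668599, plus strand): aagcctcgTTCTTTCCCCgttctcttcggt
Rpl22l1 (chr3:28805498-28805527, plus strand): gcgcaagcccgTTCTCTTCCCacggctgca
Rps3 (chr7:99483690-99483719, minus strand): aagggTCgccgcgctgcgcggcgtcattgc
Rplp0 (chr5:115559457-115559486, plus strand): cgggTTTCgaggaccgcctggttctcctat
Rpl37 (chr15:5116603-5116632, plus strand): cctgggcggaagCTTatccacaggaagtgg
Rpl24 (chr16:55966265-55966294, plus strand): gctgTTgctaggaaacagactgggcgctcg

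A RefSeq promoter was found for 42 of the 53 members, and the start nearest to the counted gene was taken where RefSeq lists several. A run of at least 8 was present in 17 of these 42, or 40.5%, against 9.72% of all 32851 promoters and 11.1% of the promoters of the other genes with a row. For members with no row the first listed start was taken instead, so their starts were picked by another rule. Among them the run was present in 4 of 24, or 16.7%, and the difference between members with and without a row was not tested. The base at the start was C in 35.7% of the members and in 16.3% of all promoters. In the longer window from 250 bases before to 50 bases after the start, read on both strands and with overlaps between motifs allowed, the ETS motif CCGGAAG was present in 47.6% of the members, 20.8% of members with no row, 8.86% of all promoters and 14.7% of those of the other genes with a row. In the same order of sets, the SP1 motif GGGCGG was found in 54.8%, 70.8%, 35.7% and 63.5%. The YY1 motif AAGATGG was found in 7.14%, 25%, 6.34% and 7.22%. These letters describe the windows, and the start a cell uses can lie some bases away from the annotated start.

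The footprint share of the whole family was a little above that of sham on the occluded side. Shares are of the library total, here the sum over 4338 genes with a single kept transcript each, not over all transcripts in the table. Ribosomal protein genes took 0.546%, 0.549% and 0.582% of this total in sham replicates 1, 2 and 5. In contralateral cortex the shares were 0.537%, 0.450%, 0.599% and 0.558% in replicates 1, 4, 5 and 6. Ipsilateral replicates 2, 4, 5 and 6 gave 0.700%, 0.630%, 0.597% and 0.593%. All 4 ipsilateral libraries thus lay above all 3 sham libraries, while they overlapped the contralateral libraries, since contralateral replicate 5 was above ipsilateral replicates 5 and 6. The group values were 0.559% ± 0.0196 (SD, n = 3) for sham, 0.536% ± 0.0630 (SD, n = 4) for contralateral and 0.630% ± 0.0495 (SD, n = 4) for ipsilateral cortex. The mean log2 CPM over the 48 tested members (scaled by library totals, prior count of 2), which weights each gene alike and is set to 0 at the mean of sham, did not separate these groups. It was -0.02, -0.10 and 0.11 in sham replicates 1, 2 and 5, -0.06, -0.28, 0.17 and 0.07 in contralateral replicates 1, 4, 5 and 6, and 0.39, 0.01, 0.06 and 0.07 in ipsilateral replicates 2, 4, 5 and 6. On this measure ipsilateral replicate 2 stood above all sham libraries and the other 3 ipsilateral libraries lay below sham replicate 5. A mean of logarithms also depends on low counts, and so on library depth. Among members with a row, the median count was 4 in ipsilateral replicate 4 and 5 in sham replicate 2. In these libraries 4 and 2 members had 0 counts, and no member did in any other library. The effect of depth on this measure was not tested, so its overlap does not decide whether the groups differ. The members were chosen with results of these data known, so no p is given for either measure.

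Counting error was of the same order as these differences. The 95% Wilson interval ran from 0.657% to 0.745% for ipsilateral replicate 2, which had the highest share, and from 0.553% to 0.719% for ipsilateral replicate 4, the shallowest library. For sham replicate 5 it ran from 0.549% to 0.616%. These intervals cover binomial counting error only. The libraries carry no molecular identifiers, so repeated reads of a single fragment were not set apart and could make the intervals too narrow.

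**Figure D1:**
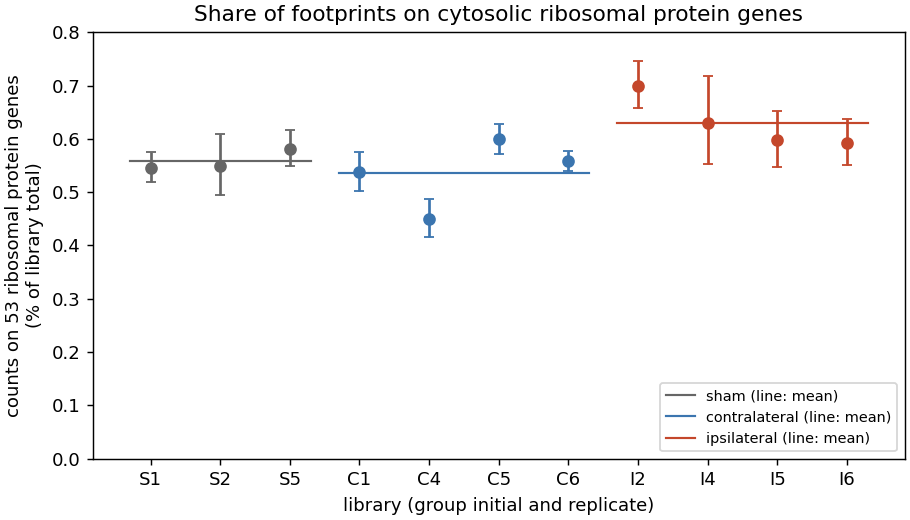
Share of footprint counts (y axis) on the 53 ribosomal protein genes in each of the 11 libraries (x axis). It is in % of the library total over the kept transcripts, with 95% Wilson intervals as bars and group means as lines. The ipsilateral libraries sit between 0.593% and 0.700%, above the 3 sham libraries, and contralateral replicate 4 is lowest at 0.450%.

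Within days of surgery the order was not the same everywhere. On day 2 the sham share was 0.549% and the ipsilateral share 0.700%. On day 5, the only day with all 3 groups, the shares were 0.582% for sham, 0.599% for contralateral and 0.597% for ipsilateral cortex. Ipsilateral exceeded contralateral cortex on day 4 (0.630% and 0.450%) and on day 6 (0.593% and 0.558%). The count on large-subunit genes divided by that on small-subunit genes was 1.79 ± 0.0969 (SD, n = 3) in sham, 1.69 ± 0.0918 (SD, n = 4) in contralateral and 1.79 ± 0.0873 (SD, n = 4) in ipsilateral cortex.

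These are shallow libraries, and the depth limits what can be said of single members. Library totals over the kept transcripts were 64462 to 256654 counts in sham, 137373 to 571352 in contralateral and 35067 to 137340 in ipsilateral cortex. A member's count in a library ran from 0 to 281 with a median of 14, and 197 of the 583 values were below 10. Summed over the 11 libraries, members held 105 to 997 counts with a median of 188, beside a median of 221 over all genes with a row. A single count was worth 29.3 CPM (library-size scaled counts after TMM) in ipsilateral replicate 4 and 15.7 CPM in sham replicate 2. The variance of the members' counts within groups was near that of counting, with a median chi-square per degree of freedom of 1.17, beside 1.24 for other tested genes in the same range of counts.

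Cortical markers were present, and the summed oligodendrocyte and microglia markers were highest on the occluded side. Of the 12 neuron markers, 11 had a row, and their summed level was 17156 to 19603 CPM in sham, 17172 to 20099 in contralateral and 15614 to 19051 in ipsilateral libraries. All 10 astrocyte markers had a row (8953 to 11223, 9970 to 14370 and 10343 to 11379 CPM). Oligodendrocyte markers, with 7 of 10 present, summed to 2319 to 2943, 2293 to 3265 and 3080 to 7107 CPM. Microglia markers, with 8 of 10 present, gave 908 to 1202, 1219 to 1445 and 1559 to 2073 CPM. Of the 7 oligodendrocyte markers, 4 rose in ipsilateral over contralateral cortex, against 0.365% of all genes, among them Cldn11, Mag and Mbp (edgeR adjusted p of 0.0367, 0.0355 and 0.0104), as did the haemoglobin genes Hba-a1 and Hba-a2 of the blood list (0.0104 and 0.0269), whose 4 measured genes summed to 892 to 1323, 566 to 993 and 1041 to 2024 CPM. Endothelial and pericyte markers had a row for 2 of 8 (948 to 1237, 986 to 1277 and 940 to 1376 CPM) and striatal neuron markers for 4 of 9 (566 to 939, 245 to 761 and 235 to 740 CPM). The part of these cell types in the ribosomal protein share was not tested.

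Levels differed widely between members and ranked alike in the 3 groups. Per kilobase of coding sequence, the scale on which different genes can be compared, the median level in sham was 195 CPM, with 187 in contralateral and 220 in ipsilateral cortex. Rps29, a zinc-binding protein of the small-subunit head, was highest at 703 ± 260 CPM per coding kilobase (SD, n = 3) in sham. Rpl38, a large-subunit protein known for its part in translation of Hox messages in embryos, followed at 632 ± 292 and Rpl37a, a zinc-binding large-subunit protein, at 486 ± 172 (SD, n = 3). The stalk protein Rplp2 came next at 446 ± 104 (SD, n = 3), so neighbours among the top 4 did not differ beyond their spread. Lowest was Rps2, which lines the messenger RNA entry channel, at 55.8 ± 21.4, then Rpl10a, the protein of the L1 stalk, at 79.3 ± 30.3 and Rpl13 at 80.1 ± 17.0 CPM per coding kilobase (SD, n = 3 for each). The highest was 12.6 times the lowest in sham, 10.6 times in contralateral and 14.5 times in ipsilateral cortex, with Rps29 and Rps2 at the ends in all 3 groups.

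Across the 53 genes, the Spearman correlation of the group means was 0.900 for sham and contralateral, 0.863 for sham and ipsilateral and 0.905 for contralateral and ipsilateral cortex. These are descriptions over genes that share libraries and coding lengths. Rpl38 ranked 2, 7 and 2 of 53 in sham, contralateral and ipsilateral cortex, and Rpl37a ranked 3, 3 and 13. Sham level per coding kilobase and coding length had a Spearman correlation of -0.544. That level is itself divided by coding length, which favours a negative value. Every transcript in the table also held at least 101 counts, so short genes with low levels per kilobase could not appear. The correlation is therefore no evidence that shorter genes are translated more.

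Much of the coding sequence of these genes cannot be told from copies elsewhere. Coding sequences were read as words of 28 nt, about a footprint long, and a word was called shared when it also occurs in a transcript of another gene. The median member shared 96.0% of its words, 17 of 53 shared all of them, and 12 shared fewer than 80%. Among the genes more easily told apart were Rpl8 at 11.4%, Rps3 at 22.2% and Rpl4 at 43.5%. Rps2 had the most pseudogenes with a shared word, 104, and the median member had 13. The 32 annotated members with no row shared a median of 96.4%. Sham level per coding kilobase and percent of words shared had a Spearman correlation of -0.324 over the 53 genes, and summed count and percent shared one of -0.410.

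**Figure D2:**
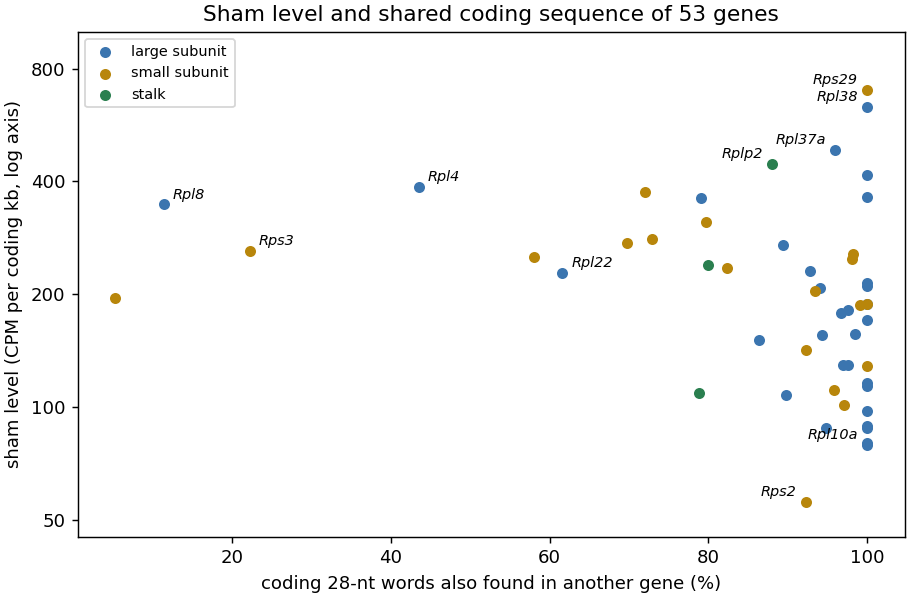
Sham level (y axis, CPM per coding kilobase, log axis) against the percent of 28-nt coding words also found in another gene (x axis) for the 53 members, coloured by subunit. Most genes stand at the right edge, with levels there from 55.8 for Rps2 at 92.3% to 703 for Rps29 at 100%.

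Copies with rows of their own held counts comparable to the members. A copy that contains at least 50% of a member's words had a row in 16 cases, 12 of them annotated as pseudogenes. Of the 16, 13 were copies of 10 members with a row and held together 17.7% as many counts as the 53 members did. The copy exceeded its member in 5 cases: Rpl27-ps3 had 216 counts and Rpl27 had 129, Gm7536 had 171 and Rpl27a 109, Gm10073 had 225 and Rplp1 151, Gm2000 had 149 and Rpl35 132, and Rps26-ps1 had 144 and Rps26 142. For 3 genes with no row of their own a copy had one: Gm10275, which contains 100% of the words of Rpl12, had 175 counts, BC004004 for Rpl21 had 105, and Rpl9-ps6 for Rpl9 had 101. How reads that fit several places were assigned is not given in the sources used here, so the values of these members are uncertain.

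**Figure D3:**
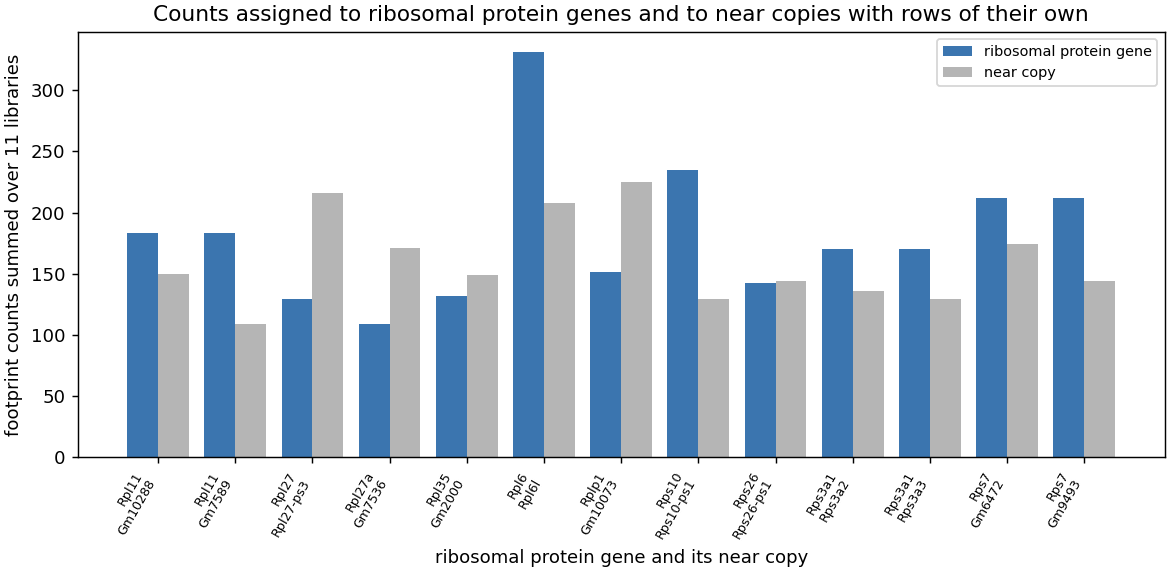
Counts summed over the 11 libraries (y axis) for members with a near copy that has its own row (blue) and for that copy (grey), 1 pair per position on the x axis. The grey bar is the higher in 5 of the 13 pairs, by most for Rpl27, with 216 against 129 counts.

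Annotated overlaps add to this. Exons of Rpl36al overlap Gm49383 and those of Rpl24 overlap Gm28037 on the same strand, by 332 and 484 nt. Those of Rpl13a overlap Gm45713 by 621 nt, also on the same strand. Exons of Rpl22l1 overlap the antisense gene Gm33051 by 159 nt, and those of Rpl10a overlap CT025652.2 by 51 nt. Reads of same-strand partners cannot be separated by strand. The use of strand in counting is not given in the sources used here, so reads of the opposite-strand partners cannot be separated either.

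Ipsilateral against sham cortex sets the occluded hemisphere against surgery alone. None of the 48 tested members changed (edgeR quasi-likelihood test, Benjamini-Hochberg adjusted p below 0.05 over 3835 genes), and 0.104% of all genes did. DESeq2 and limma-voom also called 0 members. At an unadjusted p below 0.05 there were 2 members, Rpl37 and Rpl22l1, both with higher means, or 2 of 48 against 7.74% of all genes. The estimates leaned upward: 33 of 48 members had a log2 change above 0, against 50% of all genes, and the members' median was 0.24 beside 0.00 over all genes. Without ipsilateral replicate 2 the members' median was 0.15. Medians were 0.24 for the large subunit, 0.24 for the small subunit and 0.24 for the stalk. Estimates ran from -0.40 for Rpl13a to 0.97 for Rpl27a, and the lowest adjusted p of a member was 0.626.

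Stalk proteins come first, since the antibody captured P0. Rplp0 (chr5:115559467-115563727, plus strand) anchors the stalk and its P1 and P2 pairs, which recruit the elongation factors. Its levels were 106, 78.3 and 127 CPM in sham replicates 1, 2 and 5, then 182, 145, 111 and 130 CPM in contralateral replicates 1, 4, 5 and 6. Ipsilateral replicates 2, 4, 5 and 6 gave 135, 176, 223 and 155 CPM. All ipsilateral libraries exceeded all sham libraries, while the contralateral ones overlapped both groups. The log2 difference of ipsilateral from sham was 0.60 ± 0.30 (SE), with an edgeR adjusted p of 0.648.

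Rplp2 (chr7:141447370-141451585, plus strand) stood at 157, 188 and 116 CPM in sham, 67.4, 115, 135 and 103 CPM in contralateral and 135, 176, 186 and 206 CPM in ipsilateral libraries. The groups overlap in every pair. The log2 difference was 0.69 ± 0.26 (SE) for ipsilateral against contralateral (edgeR adjusted p of 0.450), -0.45 ± 0.26 for contralateral against sham (0.939) and 0.24 ± 0.29 for ipsilateral against sham (0.904). The last ran from 0.07 without sham replicate 5 to 0.39 without ipsilateral replicate 2. Rplp1 (chr9:61913284-61914542, minus strand) varied widely within groups, at 66.7, 47.0 and 132 CPM in sham, 74.1, 45.9, 81.1 and 60.4 CPM in contralateral and 59.8, 147, 74.2 and 103 CPM in ipsilateral libraries. Its ipsilateral against sham estimate was -0.04 ± 0.38 (SE), adjusted p of 1.00 with edgeR, and it turned to 0.47 without sham replicate 5. Its near copy Gm10073 held more counts than Rplp1 itself, so these values are uncertain.

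**Figure D4:**
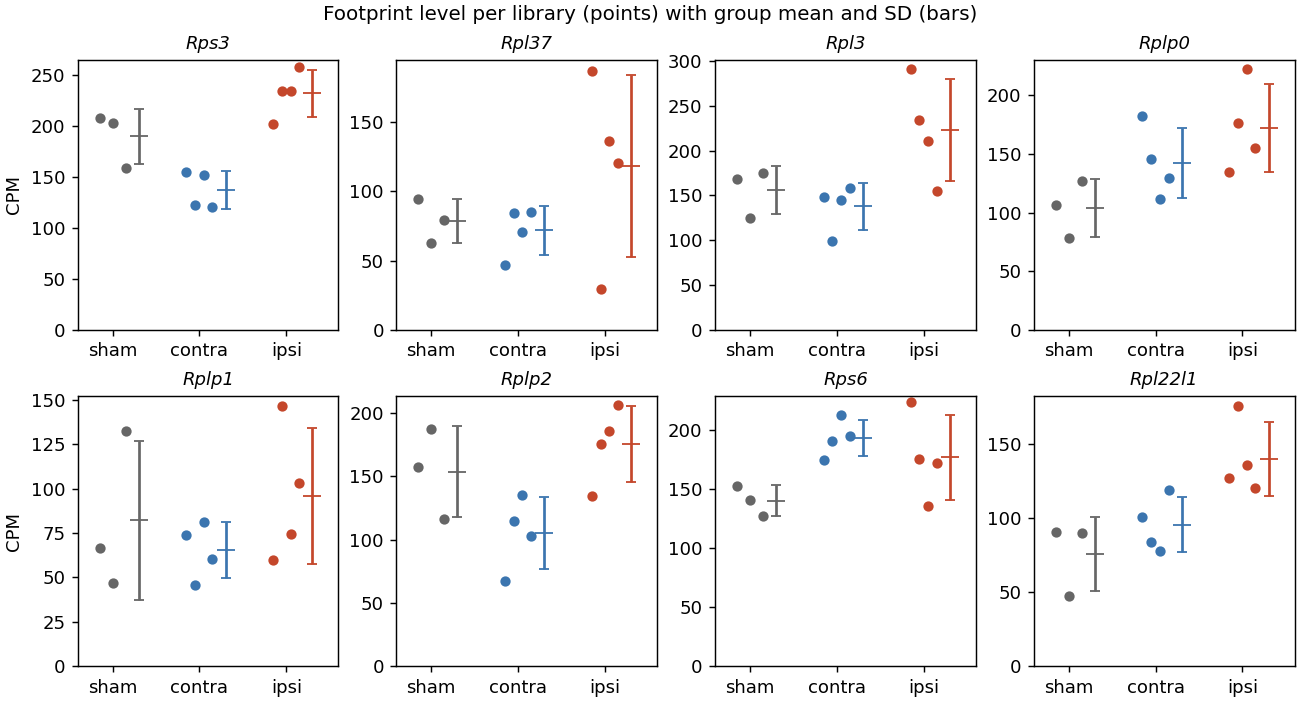
Footprint levels (y axis, CPM) of 8 members in each library (points), with group means and SD (bars), for sham, contralateral and ipsilateral cortex. Rps3 is lowest in contralateral cortex (121 to 155 CPM) and the ipsilateral points of Rplp0 and Rpl22l1 lie above all of their sham points.

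Rpl37, a zinc-binding large-subunit protein (chr15:5116645-5119140, plus strand), had 94.2, 62.6 and 79.4 CPM in sham and 47.2, 84.1, 70.9 and 85.2 CPM in contralateral libraries. Ipsilateral replicates 2, 4, 5 and 6 gave 187, 29.3, 136 and 120 CPM. So 3 ipsilateral libraries were above every other library, and replicate 4 was below all of them on a single count. The log2 difference was 0.71 ± 0.33 (SE) against sham (edgeR adjusted p of 0.626) and 0.87 ± 0.30 against contralateral cortex (0.310). Without ipsilateral replicate 2 these were 0.39 and 0.54.

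Rpl22l1 (chr3:28805436-28807424, plus strand) is the paralog that can take the place of Rpl22 in the ribosome, and Rpl22 represses its messenger RNA. Its levels were 90.3, 47.0 and 90.0 CPM in sham, 101, 84.1, 77.7 and 119 CPM in contralateral and 127, 176, 136 and 120 CPM in ipsilateral libraries. Ipsilateral libraries lay above all others, the lowest of them at 120 CPM and the highest contralateral library at 119. The log2 difference was 0.66 ± 0.32 (SE) against sham (edgeR adjusted p of 0.633) and 0.42 ± 0.28 against contralateral cortex (0.750). Rpl22 (chr4:152325742-152334071, plus strand) was at 78.5, 62.6 and 122 CPM in sham, 80.8, 61.2, 67.6 and 60.4 CPM in contralateral and 97.1, 88.0, 61.9 and 94.6 CPM in ipsilateral libraries, with an estimate against sham of -0.08 ± 0.34 (SE), edgeR adjusted p of 0.991. The difference between the paralogs' responses was not tested.

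Rpl24 (chr16:55966275-55971435, plus strand), which forms a bridge between the subunits, had 55.0, 31.3 and 74.1 CPM in sham, 40.4, 53.5, 98.0 and 139 CPM in contralateral and 112, 117, 99.0 and 86.0 CPM in ipsilateral libraries. Its log2 difference from sham was 0.78 ± 0.41 (SE) in ipsilateral cortex (edgeR adjusted p of 0.672) and 0.73 ± 0.35 in contralateral cortex (0.868), 2 contrasts that share the sham libraries. The contralateral estimate was 0.26 without contralateral replicate 6, and with surgery day as a block the estimates were 0.42 and 0.38. In all, 5 members had ipsilateral libraries that each exceeded the sham libraries, among them Rpl24, Rplp0 and Rpl22l1, and no member had all of them below. Groups that do not overlap, in either direction, were found for 7.14% of all genes.

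The comparison of ipsilateral with contralateral cortex sets the occluded side against the other side of stroke animals. Again 0 of 48 members changed with edgeR, DESeq2 or limma-voom, while 0.365% of all genes did with edgeR. Here 37 of 48 members had an estimate above 0, against 51.3% of all genes, with a median of 0.19 beside 0.01 over all genes. Without ipsilateral replicate 2 this median was 0.09. By role the medians were 0.27 for the large subunit, 0.11 for the small subunit and 0.37 for the 3 stalk proteins. At an unadjusted p below 0.05 there were 6 members, all higher in ipsilateral cortex, against 7.61% of all genes: Rps3, Rpl37, Rpl3, Rps21, Rplp2 and Rpl8. Rps3 and Rpl22l1 had no overlap between the groups, against 4.41% of all genes.

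Rps3 (chr7:99477896-99483738, minus strand) sits at the messenger RNA entry of the small subunit and also takes part in DNA repair, and with 22.2% of shared words its reads are among the easiest to place. Its levels were 208, 203 and 159 CPM in sham and 155, 122, 152 and 121 CPM in contralateral libraries. Ipsilateral replicates 2, 4, 5 and 6 gave 202, 235, 235 and 258 CPM. Contralateral libraries were below every library of the other groups, and the sham and ipsilateral libraries overlapped. The log2 difference was 0.76 ± 0.22 (SE) for ipsilateral against contralateral (edgeR adjusted p of 0.176, the lowest of any member), -0.47 ± 0.22 for contralateral against sham (0.868) and 0.29 ± 0.24 for ipsilateral against sham (0.836). The last was 0.16 without sham replicate 5 and 0.44 with surgery day as a block. Both contralateral contrasts use the same 4 libraries, so they are not separate evidence.

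Rpl3 (chr15:80077791-80091868, minus strand), which reaches the peptidyl transferase centre, had 169, 125 and 175 CPM in sham, 148, 99.4, 145 and 158 CPM in contralateral and 291, 235, 210 and 155 CPM in ipsilateral libraries. Only ipsilateral replicate 6 fell among the contralateral values, and the log2 difference was 0.64 ± 0.23 (SE), edgeR adjusted p of 0.388, with 0.38 without ipsilateral replicate 2. Rps21 (chr2:180257377-180258445, plus strand), a small protein of the small subunit, had 90.3, 62.6 and 79.4 CPM in sham, 33.7, 30.6, 98.0 and 62.2 CPM in contralateral and 105, 205, 49.5 and 155 CPM in ipsilateral libraries. Its log2 difference of 0.90 ± 0.35 (SE) against contralateral cortex came with overlapping groups and an edgeR adjusted p of 0.450.

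Rpl8 and Rpl4 are large-subunit proteins with much unshared sequence. Rpl8, which lies close to the peptidyl transferase centre, had 267, 282 and 254 CPM in sham, 168, 291, 169 and 204 CPM in contralateral and 291, 411, 285 and 267 CPM in ipsilateral libraries, with a log2 difference of 0.55 ± 0.22 (SE) against contralateral cortex and an edgeR adjusted p of 0.496. Rpl4, part of the wall of the peptide exit tunnel and the member with the most counts, had 487, 485 and 487 CPM in sham, 525, 329, 480 and 499 CPM in contralateral and 546, 645, 421 and 662 CPM in ipsilateral libraries. Its estimates were 0.21 ± 0.20 (SE) against sham (edgeR adjusted p of 0.866) and 0.28 ± 0.18 against contralateral cortex (0.725), the most precise of the family.

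Contralateral against sham cortex shows the side without occlusion. With edgeR, DESeq2 and limma-voom 0 of 48 members changed, and with edgeR 0% of all genes did. The estimates were above 0 for 26 of 48 members, against 49.9% of all genes, and the median was 0.03, on either side of 0 under the alternatives (-0.08 to 0.11). At an unadjusted p below 0.05 there were 3 members, Rpl24 and Rps6 with higher and Rps3 with lower contralateral means, against 5.74% of all genes. Rps6 had all contralateral libraries above sham and Rps3 had all of them below, beside 7.61% of all genes whose groups did not overlap.

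Rps6 (chr4:86854660-86857412, minus strand) is the small-subunit protein phosphorylated by the S6 kinases downstream of mTOR. Its levels were 153, 141 and 127 CPM in sham, 175, 191, 213 and 195 CPM in contralateral and 224, 176, 136 and 172 CPM in ipsilateral libraries. The contralateral difference from sham was 0.47 ± 0.23 (log2, SE; edgeR adjusted p of 0.868), and the ipsilateral libraries overlapped both groups, with 0.36 ± 0.26 against sham (0.809), which was 0.17 without ipsilateral replicate 2. All 28-nt words of Rps6 occur in other genes and 37 pseudogenes share some of them.

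Rpl38 (chr11:114668524-114672331, plus strand) had 94.2, 203 and 101 CPM in sham, 47.2, 61.2, 98.0 and 83.5 CPM in contralateral and 97.1, 117, 111 and 129 CPM in ipsilateral libraries. Its contralateral against sham estimate of -0.54 ± 0.29 (log2, SE) had an edgeR adjusted p of 0.911, with contralateral replicate 5 inside the sham range and sham replicate 2 far above the other libraries, without which the estimate was -0.30. Rps29 (chr12:69157722-69159186, minus strand) had 70.7, 157 and 127 CPM in sham, 101, 61.2, 152 and 133 CPM in contralateral and 149, 176, 111 and 103 CPM in ipsilateral libraries, and the groups overlapped. Rpl37a (chr1:72711290-72713813, plus strand) had 98.2, 188 and 116 CPM in sham, 94.3, 107, 105 and 121 CPM in contralateral and 112, 117, 74.2 and 86.0 CPM in ipsilateral libraries, and its estimate of -0.32 ± 0.32 against sham had an edgeR adjusted p of 0.891.

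The other members named by paralogy or low level showed no separation of the groups. Rps4x (chrX:102184941-102189394, minus strand), the X-linked copy of a small-subunit protein, had 70.7, 47.0 and 122 CPM in sham, 108, 38.2, 81.1 and 88.8 CPM in contralateral and 135, 147, 61.9 and 43.0 CPM in ipsilateral libraries. Rpl36al (chr12:69182731-69184083, minus strand), a paralog of Rpl36a, had 31.4, 93.9 and 79.4 CPM in sham, 74.1, 22.9, 94.6 and 71.0 CPM in contralateral and 97.1, 29.3, 86.6 and 77.4 CPM in ipsilateral libraries. Rpl13 (chr8:123102350-123105244, plus strand) had 62.8, 47.0 and 42.4 CPM in sham, 60.6, 76.5, 54.0 and 40.8 CPM in contralateral and 89.7, 88.0, 49.5 and 86.0 CPM in ipsilateral libraries, with 0.58 ± 0.43 (log2, SE) against sham and an edgeR adjusted p of 0.809. Rps2 (chr17:24718116-24721929, plus strand) and Rpl10a (chr17:28328471-28331033, plus strand) did not pass the filter on low counts. Rps2 had 105 counts in all and none in ipsilateral replicate 4, where 0 counts allow a share of up to 0.00856% of the library total.

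**Figure D5:**
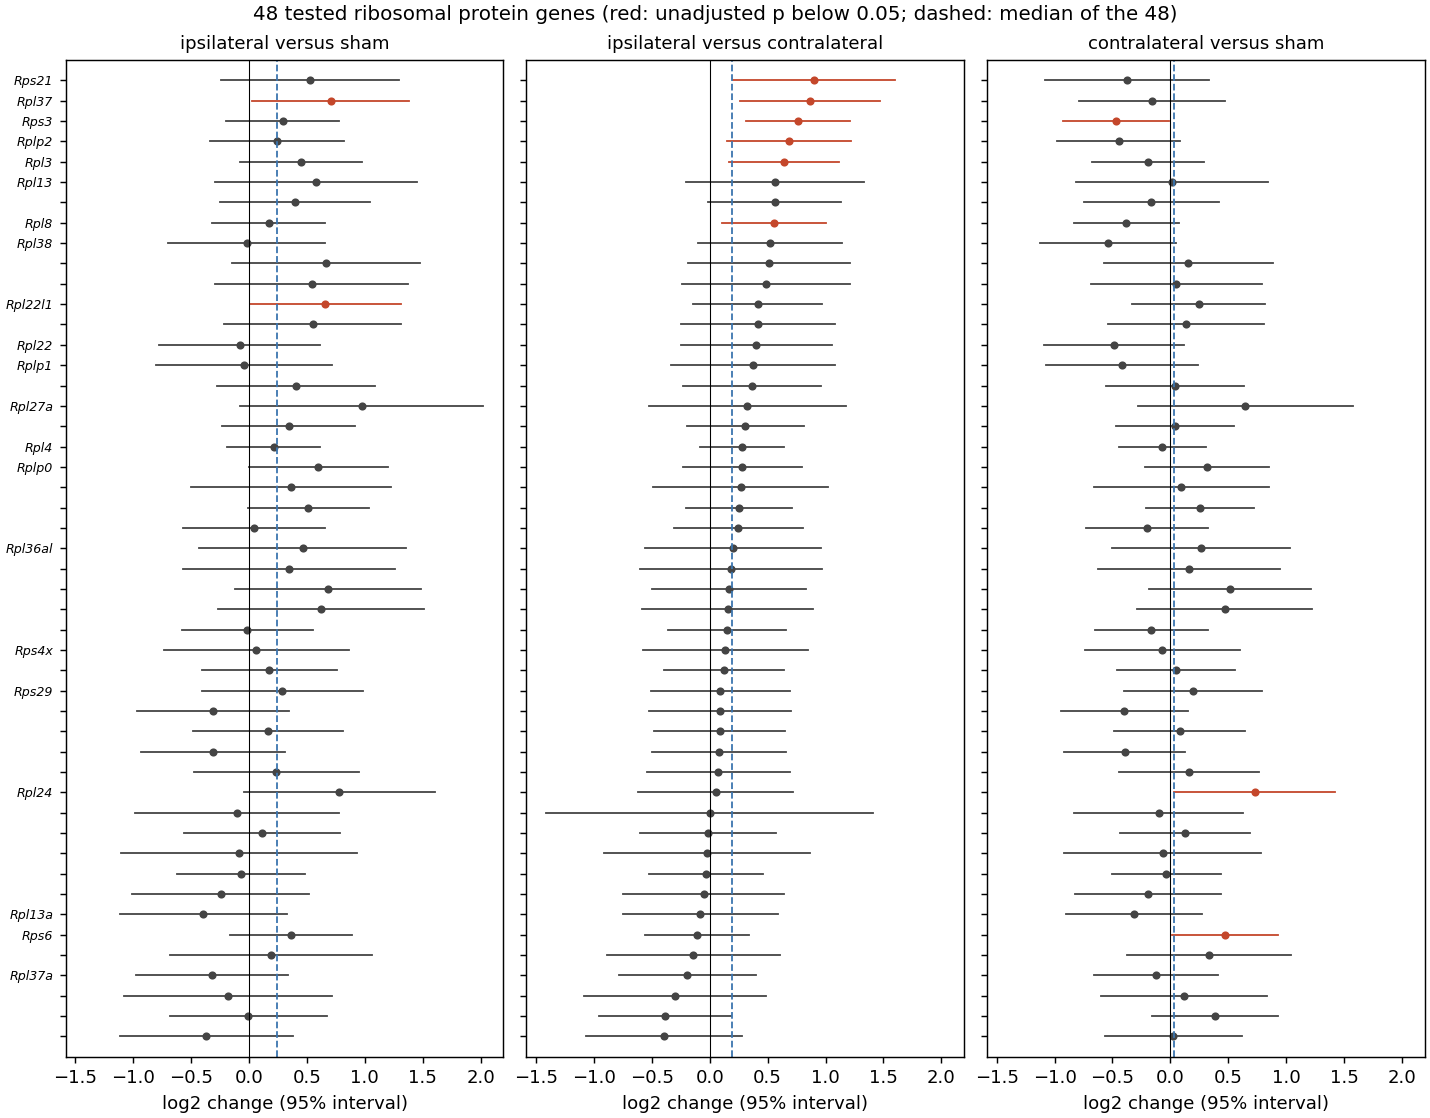
Log2 change (x axis) with its 95% interval (bars) for each of the 48 tested members (y axis, with labels for those described in the text) in the 3 comparisons, with the members' median as a dashed line at 0.24, 0.19 and 0.03. Red marks an unadjusted p below 0.05 in 2, 6 and 3 members, and no member has an adjusted p below 0.05.

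The intervals show the precision behind single members. The median 95% interval of a member reached 0.69, 0.61 and 0.59 (log2) to each side of its estimate in ipsilateral against sham, ipsilateral against contralateral and contralateral against sham, or 1.61-fold, 1.53-fold and 1.51-fold. It lay wholly between log2 changes of -1 and 1 for 24, 29 and 38 of the 48 members. These intervals are not adjusted for the number of genes, and they were narrower for members with more counts, down to 0.40, 0.36 and 0.38 for Rpl4.

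The 12 members whose reads are easier to place, with fewer than 80% of shared words, had medians of 0.19, 0.28 and -0.02 in the 3 comparisons. Members with a run of at least 8 pyrimidines overlapping the window around the start (16 tested) had medians of 0.29, 0.28 and -0.02. Those without (21 tested) had 0.16, 0.13 and 0.01. The difference between these sets was not tested. Such a run need not be a terminal tract, since that of Rpl4 began at position -18 from the annotated start and was 14 nt long.

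The terminal oligopyrimidine tract is known in other genes of translation too. Of the 25 other genes listed with a terminal oligopyrimidine tract, mostly translation factors, 23 were tested and none changed with edgeR. Estimates were above 0 for 14 of 23 in ipsilateral against sham, 16 in ipsilateral against contralateral and 14 in contralateral against sham, with medians of 0.06, 0.07 and 0.07. At an unadjusted p below 0.05 there were 2, 0 and 1 of these 23 genes, against 7.74%, 7.61% and 5.74% of all genes. The genes with the smallest p were Eif3e, a subunit of initiation factor eIF3, at 0.81 ± 0.38 (log2, SE; edgeR adjusted p of 0.597), Eef1a1, which carries aminoacyl-tRNA to the ribosome, at 0.31 ± 0.15 (0.655), and Eif3k, another eIF3 subunit, at -0.64 ± 0.25 (0.785). The tract genes and the ribosomal proteins were not tested against each other.

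Other parts of the ribosome system were measured in part. Of the ribosomal constituents that are fusion proteins or carry other names, 3 of 4 were tested, and estimates were above 0 in 0, 2 and 0 of these 3, with medians of -0.19, 0.19 and -0.23. Ribosome biogenesis genes (11 of 40 tested) were above 0 in 3, 8 and 2 cases with medians of -0.16, 0.08 and -0.14. Genes of mTOR and growth signalling to the ribosome (12 of 26 tested) were above 0 in 7, 7 and 8 cases with medians of 0.16, 0.04 and 0.07, and Larp4b, an RNA-binding protein of the La-related family, had the smallest p in ipsilateral against sham at -1.02 ± 0.40 (log2, SE; edgeR adjusted p of 0.461). Quality control and recycling genes (6 of 14 tested) were above 0 in 3, 2 and 3 cases with medians of -0.15, -0.14 and 0.03. Mitochondrial ribosomal proteins, which serve the separate ribosome of the mitochondrion, had 17 rows, and the 8 tested were above 0 in 3, 3 and 4 cases with medians of -0.05, -0.24 and 0.10. With edgeR none of these lists had a gene past the threshold in any comparison. At an unadjusted p below 0.05 they held 2 genes of mTOR signalling in ipsilateral against sham, against 7.74% of all genes, and 1 of quality control in ipsilateral against contralateral cortex, against 7.61%.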

How the data were processed

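The deposited values are raw counts of footprints for each Ensembl transcript in each library. Per the submitters' processing notes, which give no version or role, Bowtie2, edgeR and build mm10 were used. Not given in the sources used here are the annotation, the use of strand and how reads with several matches were assigned. The table holds 9784 transcripts with at least 101 counts in all, 9736 of them matched to GENCODE vM21 by identifier. The other 48, with 0.306% of the counts, stayed out. For each of 4338 genes the transcript with the most counts was kept.

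All 11 libraries were fitted together in edgeR 4.0.16 (R 4.3.3): filterByExpr with a minimum count of 10, TMM, a robust quasi-likelihood fit and F test, Benjamini-Hochberg over 3835 genes, threshold 0.05. The common dispersion was 0.0291. The step was tested on simulated data with this common dispersion for every gene, so differences in dispersion between genes were not simulated. CPM values are means ± SD after TMM scaling. Library totals over the kept transcripts ran from 35067 to 571352, a 16.3-fold range. DESeq2 1.42.0, limma-voom (limma 3.58.1), other scalings and filters, a replicate block and leaving out each library were tried.

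The submitters' design text says that replicate numbers mark days of surgery, which pairs libraries by day. As a check, deviations from group means correlated across genes at -0.139 to 0.223 (median 0.131) in the 7 same-number pairs and at -0.254 to 0.259 (median -0.0300) in the 33 others.

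Promoter sequences are RefSeq's (GRCm38.p6). The members, the gene lists and the tests were chosen with earlier results of these data known. Named members are the 5 with the smallest p in each comparison, the stalk proteins and Rps6, the 3 highest and 3 lowest sham levels, paralogs, and members without overlap in 2 comparisons. Rpl4, Rpl8, Rpl13a and Rpl27a were named after their values were seen. Some genes that these rules select are not reported here.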

Additional observations from a re-analysis of the deposited data

Results flagged for a closer look

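Among 44 groups of 4 libraries examined for a library far from the others, 2 were picked out, about what chance gives at 1 in 20. Rpl13 had 49.5 CPM in ipsilateral replicate 5 and 86.0 to 89.7 CPM in the other 3 ipsilateral libraries. The ratio of large-subunit to small-subunit counts was 1.92 in ipsilateral replicate 2 and 1.73 to 1.76 in the other 3 ipsilateral libraries.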

How the results depend on the processing

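The count of ribosomal protein genes past the threshold was 0 in every comparison and under every alternative run. Their median log2 change was 0.15 to 0.31 for ipsilateral against sham, 0.09 to 0.28 for ipsilateral against contralateral and -0.08 to 0.11 for contralateral against sham (the first 2 lowest without ipsilateral replicate 2), so the sign of the last is not fixed. With the replicate block (surgery day) the medians were 0.22, 0.17 and 0.11 and the genes called 3, 11 and 0, beside 4, 14 and 0. The block changed no member's call. Over all genes, DESeq2 called 10 in ipsilateral against sham and 2 in contralateral against sham, and without the 2 shallowest libraries 7 were called in ipsilateral against contralateral. Leaving out 1 library at a time gave 0 to 22 genes for ipsilateral against sham (0 without sham replicate 1, 2 without sham replicate 5, 22 without ipsilateral replicate 5). It gave 3 to 26 for ipsilateral against contralateral (3, 9 and 26 without ipsilateral replicates 2, 4 and 5, and 5, 9 and 4 without contralateral replicates 1, 4 and 6), and 0 to 3 for contralateral against sham (3 without sham replicate 5, 1 without ipsilateral replicate 6). The Rplp1 difference of ipsilateral from sham changed sign to 0.013 with DESeq2, 0.080 with the replicate block and 0.036 with counts of near copies added. Leaving out 1 library at a time moved it from -0.31 to 0.47 (above 0 when sham replicate 5 or either of ipsilateral replicates 2 and 5 was dropped), and that of contralateral from sham from -0.66 to 0.10 (above 0 without sham replicate 5). The sham share was 0.602% with counts averaged over transcripts, and the median sham level was 116 CPM per kilobase of whole transcript. The cause was not tested for any of these. The near-copy and shared-word alternatives were chosen after seeing the data.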
